A study of Mus musculus with 4 samples.

Results

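Granule progenitor-like cells of mouse medulloblastoma were divided by whether a transcript of Myod1, the master regulator of skeletal muscle, was detected in them, so the 2 classes were chosen by measured values. A cell was taken as granule progenitor-like when it had at least 1 UMI (unique molecular identifier, 1 captured transcript) of Atoh1, none of the leukocyte gene Ptprc, UMIs of at most 2 of the neuronal genes Cntn2, Neurod1, Stmn2, Pnoc and Rab3a, and UMIs of at most 1 of the muscle genes Acta1, Myl1, Tnni1, Mylpf, Actc1 and Des. This rule held 1744 of the 6509 cells deposited, of which 540 had a Myod1 UMI and 1204 had none. The cells came from 4 tumours of the sonic hedgehog (SHH) type that arose in Ptch1+/- mice irradiated at birth. All 4 had reached end point, received no treatment and form a single group. Ptch1+/- mice carry only 1 intact copy of Ptch1, the receptor that restrains SHH signalling, in every cell of the body, and there was no normal cerebellum or other genotype beside them. Dissociated cells had been stored frozen and viable, and live ones were sorted on a dead-cell dye (propidium iodide or DAPI) before 10x Genomics droplet profiling.

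Granule neuron progenitors divide in the outer layer of the postnatal cerebellum under SHH, and Atoh1, a basic helix-loop-helix factor, keeps them in that state. SHH medulloblastoma arises from them. MyoD, the product of Myod1, is a basic helix-loop-helix factor as well: with E proteins it binds E-box motifs, turns on Myog, Mef2 and contractile genes, and in muscle precursors promotes exit from the cell cycle. It is not part of the usual programme of cerebellar progenitors.

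The classes were set by the values of Myod1 and the 13 genes of the rule, so the differences of those 14 genes between the classes were not tested. In tumours 1 to 4 the rule gave 204, 895, 465 and 180 cells, and the Myod1-detected class held 96, 282, 136 and 26 of them. The whole tables held between 10458431 and 23439893 UMIs per tumour, over 798 to 2589 cells. Myl1 and Des were not listed in the tables of tumours 2, 3 and 4, nor Tnni1 in those of tumours 2 and 3, and they counted as 0 there. Between 0 and 7 cell barcodes were shared by any pair of libraries. No doublet caller was applied. Granule lineage factors that the rule did not use were read as well. Barhl1, a homeobox factor of this lineage, stood at 250.7 to 455.3 CPM (UMIs of the gene per fixed number of all UMIs) in the detected class and at 218.9 to 476.4 CPM in the undetected class over the 4 tumours. Zic1 ranged from 259.2 to 497.7 CPM and from 257.8 to 437.1 CPM, and Pax6 from 122.5 to 262.0 CPM and from 117.1 to 255.5 CPM. All 3 factors were thus present in both classes of every tumour. They were not read in other cell groups, so they do not separate progenitors from other cells of the granule lineage. Exactly 2 of the neuronal genes had UMIs in 80, 537, 313 and 93 cells of tumours 1 to 4. None of these genes had a UMI in 42, 74, 22 and 27 cells. Myeloid markers were present too: the 9 listed summed to between 11.9 and 1045 CPM in detected cells and between 302.6 and 2552 CPM in undetected cells, although no cell had a Ptprc UMI. Of the rule genes, Atoh1 stood at 233.5, 292.3, 394.3 and 185.1 CPM in detected cells of tumours 1 to 4. In undetected cells it stood at 273.5, 312.8, 421.0 and 170.0 CPM. Actc1 stood at 46.6, 1.72, 1.70 and 2.85 CPM in detected and 17.1, 2.36, 0 and 0 CPM in undetected cells.

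A Myod1 UMI was found in 47.1% of the progenitor-like cells of tumour 1 (95% Wilson interval 40.3 to 53.9%), 31.5% in tumour 2 (28.6 to 34.6%), 29.3% in tumour 3 (25.3 to 33.5%) and 14.4% in tumour 4 (10.1 to 20.3%). The mean was 30.6% ± 13.4 (SD, n = 4 tumours), and the interval of tumour 1 lay above, and that of tumour 4 below, those of the other tumours. These intervals cover counting error only. As a level over all progenitor-like cells, Myod1 stood at 95.1, 65.9, 69.0 and 20 CPM in tumours 1 to 4 (mean 62.5 ± 31.2 SD). Cells with 2 or more UMIs numbered 49, 122, 51 and 8, and the largest count in a cell was 16, 9, 7 and 3.

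Detection went with depth. Detected cells had a median of 12978, 9718, 7910 and 13218 UMIs and undetected cells of 10638, 7555, 6306 and 8373. From the shallowest to the deepest quintile of cells the share with a Myod1 UMI went from 24.4 to 60.0% in tumour 1, from 19.6 to 50.8% in tumour 2, from 9.68 to 43.0% in tumour 3 and from 2.78 to 27.8% in tumour 4. Undetected is therefore not the same as not expressing. The level of Myod1 per UMI was also higher in the deepest than in the shallowest quintile, though it did not rise evenly. It was 103.3, 75.4, 79.3 and 23.9 CPM against 30.8, 57.0, 34.0 and 13.4 CPM in tumours 1 to 4. Why deeper cells had more Myod1 per UMI was not tested. Had every progenitor-like cell of a tumour carried Myod1 at the same level, Poisson sampling at each cell's own depth would have given shares of 69.8, 42.7, 38.5 and 17.7%, each above the share observed. Counts per cell were wider than Poisson, with a variance of 4.81, 2.31, 2.21 and 1.48 times the mean. When each cell was thinned at random to 5700 UMIs and shallower cells were left out (0, 26, 26 and 1 detected and 0, 115, 133 and 43 undetected), the shares were 27.5, 24.7, 26.8 and 11.8%. At that common depth tumours 1 to 3 lay between 24.7 and 27.5%, and tumour 4 stood below them.

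Immune cells gave the background. Among cells with a Ptprc UMI and no Atoh1 UMI, Myod1 was detected in 6 of 68 cells in tumour 1 (8.82%), 4 of 88 in tumour 2 (4.55%), 0 of 7 in tumour 3 (a count of 0 that still allows 42.9%), and 9 of 1027 in tumour 4 (0.876%). Their median depths were 10897, 5641, 8348 and 6571 UMIs, against 11697, 8181, 6830 and 8885 UMIs in progenitor-like cells. Requiring no Atoh1 UMI leaves out immune cells that carry this tumour transcript, which may lower the background. Thinned immune cells with Myod1 numbered 3 of 68, 2 of 42, 0 of 4 and 1 of 569 in tumours 1 to 4. After thinning, the share in progenitor-like cells exceeded that in immune cells by 20.3 ± 6.48 percentage points (SD, n = 4) and in 4 of 4 tumours (exact permutation over tumours, two-sided p = 0.13, the smallest that 4 tumours allow; adjusted p = 0.375 over the 3 groups compared). Neuronal cells, with UMIs of at least 3 of the 5 neuronal genes and none of Atoh1 or Ptprc, had Myod1 in 28 of 50, 47 of 527, 30 of 174 and 10 of 94 cells. Their thinned share was lower than that of progenitor-like cells in 3 of 4 tumours, by 5.36 ± 9.0 points on average (exact permutation p = 0.375, adjusted p = 0.5), a difference smaller than its spread. All remaining cells differed from progenitor-like cells by 1.49 ± 3.03 points (exact permutation p = 0.5, adjusted p = 0.5). They include cells with Atoh1 just outside the rule. In tumours 1 to 4, those with exactly 3 neuronal genes numbered 70 of 275, 560 of 1079, 305 of 583 and 64 of 592. The group is therefore not a set of unrelated cell types. Muscle cells, with UMIs of at least 2 of the 6 muscle genes, were found by this rule in tumour 1 only, where 175 of 211 (82.9%) had a Myod1 UMI at 115.5 CPM and a median depth of 28508 UMIs.

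**Figure D1:**
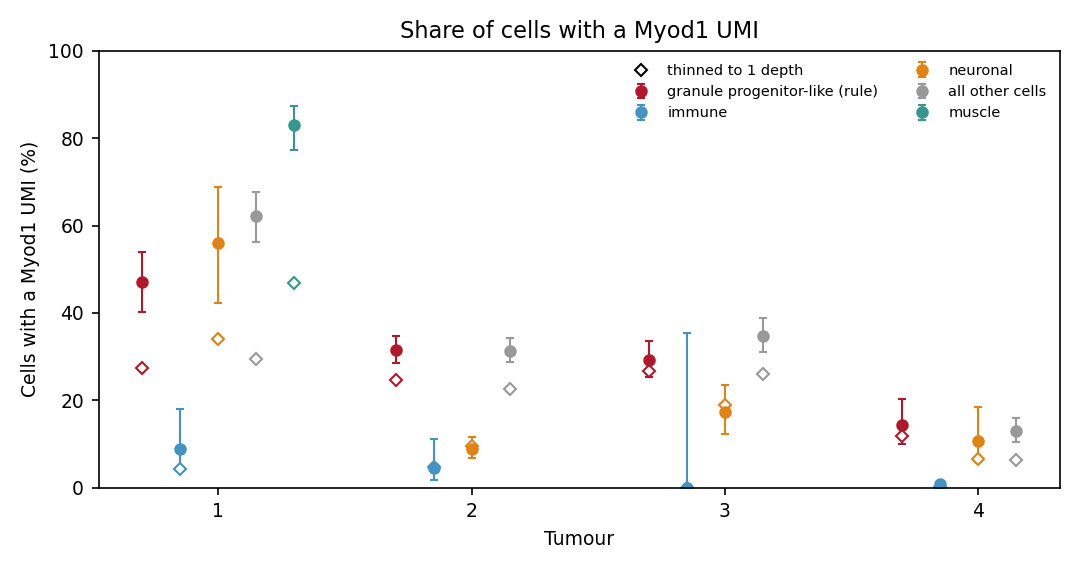
Percentage of cells with a Myod1 UMI (y axis) in each tumour (x axis), by cell group. Filled points are all cells with 95% Wilson intervals, and open diamonds are the same groups thinned to 5700 UMIs per cell. Progenitor-like cells lie above immune cells in each tumour, and after thinning tumours 1 to 3 lie close together.

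At the limits of the rule, cells with exactly 2 of the neuronal genes had Myod1 in 57.5, 35.0, 32.6 and 19.4% of cases in tumours 1 to 4, and those with 3, just outside the rule, in 70.0, 34.8, 38.4 and 23.4%. The second kind was deeper, with a median of 19685, 9526, 8647 and 13187 UMIs against 13959, 8544, 7361 and 11447. Per UMI the order varied: Myod1 stood at 108.5, 70.5, 66.9 and 20.4 CPM in cells with 2 of the genes and at 94.2, 68.1, 82.6 and 21.5 CPM in cells with 3. In tumour 1, cells with 1 muscle gene had it in 47.8% (110.1 CPM, median 12397 UMIs) and cells with 2 in 51.6% (80.7 CPM, median 16835 UMIs).

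Genes higher in Myod1-detected cells included 9 of 26 genes of a G2/M list, among them Cdk1 and Top2a, and 1 of 26 genes of a G1/S and DNA replication list. Genes lower in them included Olig1, S100b and the Notch ligand gene Dll3, whereas 0 of 7 tested astrocyte markers and 0 of 7 tested myeloid markers passed. No muscle structural gene outside the rule was both listed in every tumour and abundant enough to test. For this comparison each tumour gave 1 profile per class. The undetected cells were weighted so that their spread over 10 strata of UMI depth matched that of the detected cells, which brought the median depths to 12976 and 12851, 9717 and 9741, 7909 and 7938, and 13217 and 12845 UMIs in tumours 1 to 4. Of 8027 genes tested, 48 were higher (0.598%) and 16 were lower (0.199%) in detected cells at an adjusted p under 0.05 (limma on log2(CPM + 10), tumour as a block, Benjamini-Hochberg adjustment). Each of the 64 had the same sign in 4 of 4 tumours. An unadjusted p under 0.05 was reached by 895 genes (11.1%), the background for such counts below. Without any requirement on p, 10.5% of the genes tested were higher in all 4 tumours and 9.67% were lower in all 4. All fold changes below are differences on that log2 scale, which understates the change of low genes. The number of genes passing was 58, 21, 25 and 123 when tumours 1 to 4 were left out in turn, and 315 without matching on depth. Leaving out the 5% deepest cells of each tumour gave 96.

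**Figure D2:**
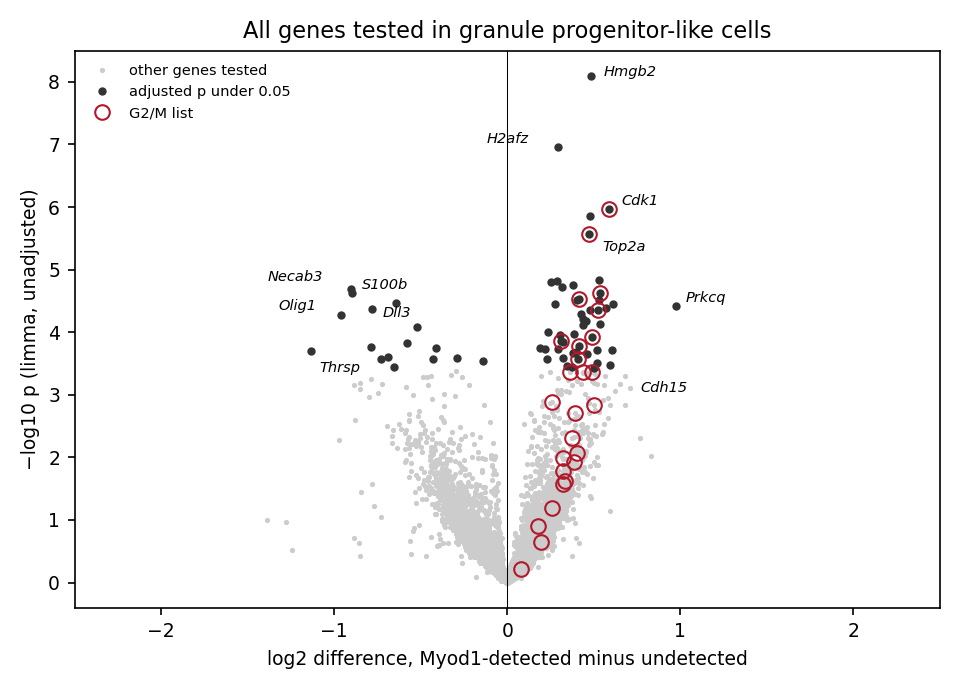
Each point is 1 of the 8027 genes tested: the x axis is the log2 difference between Myod1-detected and undetected cells and the y axis is −log10 of the unadjusted p from limma. Black points are the 64 genes with adjusted p under 0.05, and red circles mark the 26 genes of the G2/M list, which all lie on the positive side.

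The smallest p belonged to Hmgb2, a gene chosen after its values were seen. It encodes a high-mobility group protein that binds DNA and is abundant in dividing cells. Hmgb2 stood at 1786, 2536, 2667 and 1943 CPM in detected cells of tumours 1 to 4 and at 1324, 1685, 1853 and 1478 CPM in undetected cells. Within each tumour the detected class was higher, although the 2 ranges overlapped between tumours. The difference was 0.48 ± 0.04 (SE), or 1.4-fold, with an adjusted p of 6.5e-05 (limma). H2afz, a variant histone H2A gene chosen the same way, followed at 0.29 ± 0.03 (adjusted p = 0.000441, limma).

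Cdk1 encodes the kinase that drives entry into mitosis. It lies at chromosome 10, 69335146 to 69352912 (GRCm38.p6). Its levels were 187.6, 340.8, 278.1 and 210.8 CPM in detected cells and 127.5, 209.4, 196.5 and 129.5 CPM in undetected cells, higher in the detected class of each tumour. The difference was 0.59 ± 0.07, or 1.5-fold (adjusted p = 0.00278, limma). Top2a encodes topoisomerase II alpha, which untangles replicated chromosomes, and lies at chromosome 11, 98992947 to 99024199. It stood at 322.5, 494.5, 498.5 and 222.2 CPM in detected cells and 229.0, 341.0, 332.7 and 174.6 CPM in undetected cells, a difference of 0.47 ± 0.06 (adjusted p = 0.00435, limma).

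The promoters of Cdk1, Top2a and Hmgb2 are shown because these genes were higher together and because many promoters of mitotic genes carry paired CCAAT boxes and cell cycle homology regions. Each runs from 250 bases before to 50 bases after the start used by the promoter table, which for Top2a lies inside the outer end of the gene given above (RefSeq, GRCm38.p6, chr10:69352863-69353162 on the minus strand, chr11:99024140-99024439 on the minus strand and chr8:57511593-57511892 on the plus strand). Capitals mark CCAAT and TTTGAA on either strand.
Cdk1: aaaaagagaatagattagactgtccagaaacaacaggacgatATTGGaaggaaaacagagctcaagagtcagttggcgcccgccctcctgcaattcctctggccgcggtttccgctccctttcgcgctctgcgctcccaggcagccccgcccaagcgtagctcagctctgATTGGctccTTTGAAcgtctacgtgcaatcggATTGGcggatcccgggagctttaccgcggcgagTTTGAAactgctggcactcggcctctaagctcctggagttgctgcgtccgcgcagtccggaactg
Top2a: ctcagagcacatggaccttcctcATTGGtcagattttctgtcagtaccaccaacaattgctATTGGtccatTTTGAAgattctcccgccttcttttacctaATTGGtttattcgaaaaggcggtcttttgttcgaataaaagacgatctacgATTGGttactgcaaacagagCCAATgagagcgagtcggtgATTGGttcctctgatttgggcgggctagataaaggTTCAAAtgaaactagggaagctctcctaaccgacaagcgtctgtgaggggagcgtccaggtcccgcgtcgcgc
Hmgb2: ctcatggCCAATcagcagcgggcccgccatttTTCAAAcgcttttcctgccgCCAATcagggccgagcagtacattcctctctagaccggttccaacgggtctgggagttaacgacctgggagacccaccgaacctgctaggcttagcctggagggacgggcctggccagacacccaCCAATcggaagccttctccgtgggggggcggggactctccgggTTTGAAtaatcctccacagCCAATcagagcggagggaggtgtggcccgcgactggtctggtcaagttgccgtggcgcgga
The Cdk1 promoter held 3 CCAAT and 2 TTTGAA matches, that of Top2a 6 and 2, and that of Hmgb2 4 and 2. None of the 3 held CAGCTG, an E-box that MyoD prefers. A promoter was found by symbol for 36 of the 48 higher genes. TTTGAA occurred in 16 of these (44.4%), against 12.1% of the 6420 promoters found for genes tested and 17.9% of all 32851 promoters in the table. CCAAT occurred in 24 (66.7%), against 40.0% and 37.4%. CAGCTG occurred in 8 (22.2%), against 13.3% and 16.3%. Among the 13 promoters found for the 16 lower genes, TTTGAA occurred in 0, CCAAT in 6 (46.2%) and CAGCTG in 4 (30.8%). These are matches of letters in windows of equal length, and the motifs were searched on both strands without regard to overlap.

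The G2/M list held 26 genes, all of them tested, and all 26 differences were above 0. Of these, 9 passed the test and 18 were higher in 4 of 4 tumours, against the 10.5% of all genes. The median difference was 0.39, beside a median of 0.00 over all genes tested, and by tumour it was 0.27, 0.43, 0.56 and 0.43. The 9 were Cdk1, Top2a, Cenpe, Cenpf, Nusap1, Birc5, Cenpa, Tpx2 and Smc4. Cenpe, a kinesin of the kinetochore, differed by 0.53 ± 0.08, and Cenpf, another kinetochore protein, by 0.52 ± 0.09 (adjusted p = 0.0147 and 0.0149, limma). Birc5, the gene of survivin, differed by 0.42 ± 0.07. Mki67, the gene of the proliferation antigen Ki-67, missed the threshold narrowly at 0.36 ± 0.08 (adjusted p = 0.0501, limma). Ccnb2 at 0.18 and Bub1 at 0.08 were the smallest, and Bub1 was lower in detected cells of tumour 4. The list's count was 12, 3, 3 and 14 without tumours 1 to 4 in turn, 22 without depth matching (median 0.68) and 2 when cells were both thinned and matched (median 0.45).

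Further genes of division were among the 12 with the largest positive differences. Asf1b, a histone chaperone, stood at 47.9, 66.7, 56.0 and 42.7 CPM in detected cells and 34.2, 40.5, 30.7 and 21.9 CPM in undetected cells, groups that did not overlap. The difference was 0.60 ± 0.12 (adjusted p = 0.0337, limma). Fbxo5, an inhibitor of the anaphase-promoting complex, differed by 0.57 ± 0.10, and Cdca5, the gene of sororin, which holds sister chromatids together, by 0.59 ± 0.12. The spindle genes Tacc3, Cdca8 and Prc1 differed by 0.54 ± 0.10, 0.53 ± 0.08 and 0.53 ± 0.09, and Shcbp1 by 0.52 ± 0.11. Rangap1, which encodes the GTPase-activating protein of Ran in nuclear transport and at the spindle, stood at 123.9, 154.4, 124.6 and 148.1 CPM against 79.7, 122.3, 77.0 and 73.7 CPM. Its classes did not overlap and differed by 0.61 ± 0.10 (adjusted p = 0.0149, limma).

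Genes of the earlier phases differed less. Of the 26 genes in the G1/S and DNA replication list, 20 had differences above 0 with a median of 0.15, and 1 passed. That gene was Rrm2, a subunit of ribonucleotide reductase, at 256.7, 383.4, 355.2 and 202.2 CPM in detected cells and 172.1, 275.6, 321.5 and 131.0 CPM in undetected cells (0.44 ± 0.08, adjusted p = 0.0204, limma). The list's median was 0.32, 0.13, -0.12 and 0.19 in tumours 1 to 4, so tumour 3 had the opposite sign. Mcm5, of the replicative helicase, differed by 0.27 ± 0.07 (adjusted p = 0.122, limma) and Pcna, the replication clamp, by 0.04 ± 0.08. Whether the G2/M list differed more than the G1/S list was not tested.

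The same contrast was taken per cell. After thinning to 5700 UMIs and matching on depth, cells with UMIs of at least 3 of the 26 G2/M genes made up 86.5, 92.6, 96.4 and 92.0% of detected cells and 68.9, 80.4, 90.9 and 82.1% of undetected cells. The detected class was higher in 4 of 4 tumours, by 11.3 ± 5.01 percentage points (SD), and the exact permutation test over tumours gave its smallest possible p of 0.13. Requiring 5 genes gave 16.2 points and requiring 2 gave 5.40. Unthinned and unmatched, the shares were 94.8, 90.4, 96.3 and 96.2% against 81.5, 73.9, 83.0 and 79.2%. For the G1/S list the shares were 95.8, 100, 100 and 100% against 87.4, 96.4, 99.9 and 88.4%, a difference of 5.95 ± 5.08 points (p = 0.13, exact permutation). These shares read the same UMIs as the gene test.

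**Figure D3:**
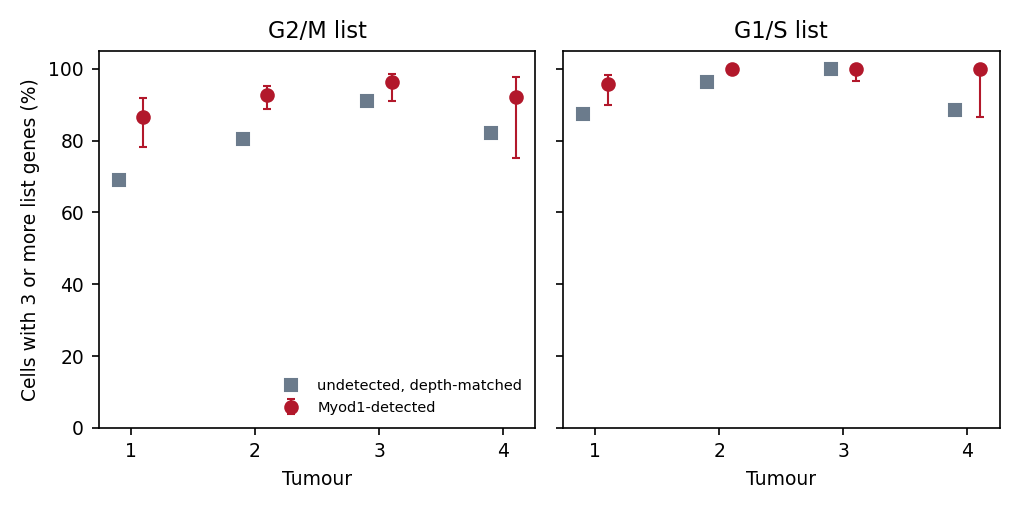
Percentage of cells with UMIs of at least 3 genes of the G2/M list (left) or the G1/S list (right) after thinning to 5700 UMIs, by tumour (x axis). Red circles are Myod1-detected cells with 95% Wilson intervals and grey squares are undetected cells weighted to the same depth. In the left panel each red circle lies above its grey square.

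Undetected cells were also matched on depth and on these phase classes together, a choice made after seeing the data. Any cell with at least 3 G2/M genes counted as G2/M, which held 86.5 to 96.4% of detected and 68.9 to 90.9% of undetected cells. Matching on so broad a class cannot equalise the amount of G2/M transcripts within it. Differences that remained are therefore not separated from the cell cycle. This setting used 5 depth strata in place of 10 and left out cells under 5700 UMIs as well, which kept 96, 256, 110 and 25 detected cells, so its values differ from the main ones by more than the phase. In it 8 genes passed, 7 higher and 1 lower. Hmgb2 was still higher by 0.35 (adjusted p = 0.0135), Cdk1 by 0.46 (0.0262) and H2afz by 0.21 (0.0135), each by limma. H2afx, H1f0, Tubb5 and Pqlc1 were also among them, and Necab3 was the lower gene. The G2/M list had a median of 0.26, with 25 of 26 genes above 0 and 1 passing.

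The largest positive difference belonged to Prkcq, the gene of protein kinase C theta, a kinase known from T cells and skeletal muscle. It lies at chromosome 2, 11171905 to 11301226. Prkcq stood at 26.7, 14.8, 25.4 and 22.8 CPM in detected cells and at 7.47, 7.95, 6.70 and 3.57 CPM in undetected cells, and the classes did not overlap. The difference was 0.97 ± 0.16, or 1.96-fold (adjusted p = 0.0149, limma). Its mean over undetected cells was under the minimum of 10 CPM, so it entered the test through its level in detected cells; with a minimum of 1 CPM the adjusted p was 0.0162. The difference was 1.05 (adjusted p = 0.0116) when the cells richest in myeloid and glial transcripts were left out and 0.92 (adjusted p = 0.348) when cells were thinned and matched.

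**Figure D4:**
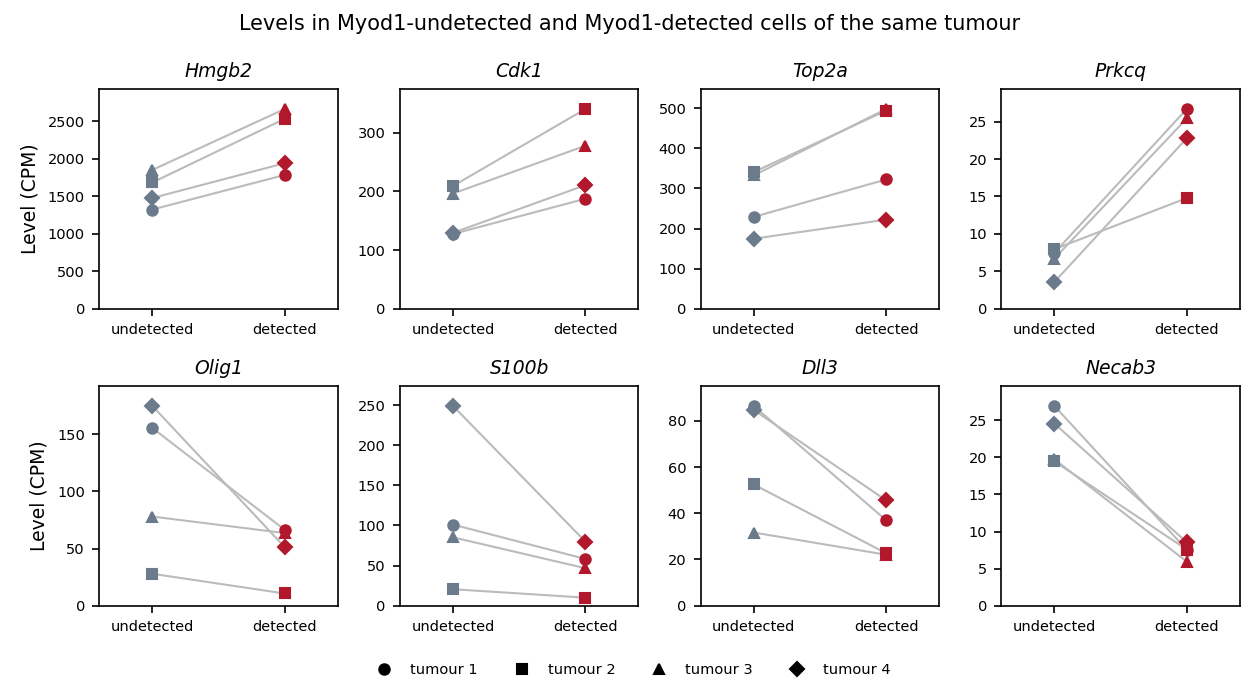
Levels in CPM (y axis, from 0) of 8 genes in Myod1-undetected (grey) and Myod1-detected (red) cells, with a line joining the classes of each tumour and a symbol per tumour. The 4 genes of the upper row are higher in detected cells of each tumour, and the 4 of the lower row are lower.

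Of 19 myogenic regulators, 4 were listed in every tumour and abundant enough to test, and 0 passed (limma, 2 at an unadjusted p under 0.05). Of 26 muscle structural genes not used by the rule 0 could be tested, and 26, 15, 7 and 13 were listed in tumours 1 to 4. The rule leaves out cells with UMIs of more than 1 muscle gene, so the level of other muscle genes is not independent of the selection. Summed over the regulators, Myod1 not among them, the level was 198.5, 97.7, 115.3 and 91.2 CPM in detected and 116.5, 77.3, 77.1 and 72.2 CPM in undetected cells of tumours 1 to 4, higher in the detected class of each. Only 17, 7, 8 and 8 of the 19 were listed in tumours 1 to 4. Myog, the next factor of the muscle cascade, had 95 UMIs in 14 detected cells and 21 UMIs in 16 undetected cells of tumour 1 and was not listed in the tables of tumours 2 to 4. It made up 65.0 CPM of the detected and 14.8 CPM of the undetected sum of tumour 1. Myf5 and Myf6 had 0 UMIs in tumour 1 and were not listed in the others. Cdh15, which encodes M-cadherin of muscle precursors and is also expressed by cerebellar granule cells, stood at 44.5, 31.0, 26.3 and 22.8 CPM in detected cells and 39.1, 13.3, 12.2 and 4.64 CPM in undetected cells. It was higher in 4 of 4 tumours, by 0.71 ± 0.16, with an adjusted p of 0.0634 (limma). Mef2a and Mef2c, which encode partners of MyoD, differed by 0.44 ± 0.15 and 0.25 ± 0.13 (adjusted p = 0.248 and 0.512, limma). With Cdh15 and Mef2d, these 2 genes made up most of the regulator sums in tumours 2 to 4. Mef2c alone stood at 38.5, 43.2 and 37.0 CPM in detected and 37.8, 31.2 and 35.0 CPM in undetected cells there.

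Listed partners and targets of MyoD were read next. In the list of E proteins and Id inhibitors 5 genes were tested, 0 passed, 0 had an unadjusted p under 0.05 and the median was -0.01, and Tcf3, the gene of E12 and E47, stood at 179.6 CPM in detected and 177.0 CPM in undetected cells on average. Of the 11 tested genes that MyoD activates in muscle, cell cycle control or adhesion, 0 passed, 0 had an unadjusted p under 0.05 and the median was 0.09. Cdkn1a, the gene of the cell cycle inhibitor p21, differed by -0.34 ± 0.27 (adjusted p = 0.684, limma). Among 13 tested genes of cell cycle exit, 0 passed (3 at an unadjusted p under 0.05), and Cdkn2c, the gene of p18, differed by 0.33 ± 0.09 (adjusted p = 0.136, limma) and was higher in 4 of 4 tumours.

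Several of the lower genes are known from glial or myeloid cells. Olig1, a factor of the oligodendrocyte lineage, lies at chromosome 16, 91269769 to 91271939. It stood at 66.4, 10.7, 63.6 and 51.3 CPM in detected cells and 155.6, 27.9, 78.0 and 174.9 CPM in undetected cells, lower in the detected class of each tumour, with differences from -1.59 to -0.26. The fitted difference was -0.96 ± 0.17 (adjusted p = 0.0162, limma). S100b, a calcium-binding protein gene of astrocytes, stood at 58.2, 9.97, 46.6 and 79.8 CPM against 101.0, 20.5, 85.1 and 248.8 CPM, a difference of -0.90 ± 0.14 (adjusted p = 0.0147, limma). Ndrg2, also a gene of astrocytes, differed by -0.65 ± 0.11, and Cyba, a subunit of the phagocyte oxidase, by -0.73 ± 0.15.

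Summed markers of those cells were lower in the detected class in most tumours. The 7 tested myeloid markers had a median difference of -0.85, with 0 above 0 and 0 passing (5 at an unadjusted p under 0.05), and Tyrobp, an adaptor of myeloid receptors, differed by -0.88 ± 0.20 (adjusted p = 0.0594, limma). Summed over the 9 myeloid markers, the level was 558.7, 168.1, 11.9 and 1045 CPM in detected and 437.5, 408.8, 302.6 and 2552 CPM in undetected cells, so the sum of tumour 1 went the other way. Cd74 alone made up 331.4 CPM of the detected and 86.6 CPM of the undetected sum there. The median difference of the 7 tested markers in tumour 1 was -0.36, with 2 of 7 above 0. Astrocyte markers summed to 223.2, 123.8, 380.7 and 390.2 CPM against 342.5, 166.2, 329.7 and 630.7 CPM, with tumour 3 the exception, and their median difference was -0.54 with 3 of 7 above 0 and 0 of 7 passing (4 at an unadjusted p under 0.05). Oligodendrocyte lineage markers summed to 170.5, 84.6, 197.5 and 151.0 CPM against 270.0, 97.9, 259.1 and 348.1 CPM. Of 4 tested, Olig1 passed as lower. Endothelial and erythroid markers summed to at most 5.70 CPM in any class.

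Leaving out, in each tumour, the 10% of cells richest in myeloid transcripts and the 10% richest in glial transcripts, a choice made after seeing the data, gave 68 genes, 53 higher and 15 lower, of which 50 were among the 64. Olig1, itself among the glial markers used, then differed by -0.30 (adjusted p = 0.687), S100b by -0.59 (0.178), Cyba by -0.44 (0.207) and Psap by -0.14 (0.600), each by limma. Of the G2/M list 9 of 26 passed, with a median of 0.42. Of these 9, 8 had passed before, Smc4 no longer passed (adjusted p = 0.0655) and Ube2c, of the ubiquitin system of mitosis, did (adjusted p = 0.0174, limma). Necab3, Dll3, Ndrg2 and Maged2 passed in this setting as well. Limiting cells to at most 1 glial marker, 3 glial markers or 1 myeloid marker left 0 of the 26 G2/M genes passing. Their median was then 0.56, 0.52 and 0.63, over 3, 4 and 3 tumours.

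Dll3, which encodes a Notch ligand that acts within the cell, lies at chromosome 7, 28293555 to 28301785. It stood at 37.0, 22.7, 22.0 and 45.6 CPM in detected cells and 86.4, 52.4, 31.7 and 84.7 CPM in undetected cells, lower in each tumour. The difference was -0.78 ± 0.13, or 0.583-fold (adjusted p = 0.0149, limma). It was the 1 of 10 tested Notch pathway genes to pass. The list's median was -0.17, with 3 of 10 above 0. Hes5, a Notch target, stood at 0.685, 1.72, 5.94 and 8.55 CPM in detected and 3.92, 3.26, 5.83 and 137.9 CPM in undetected cells, so its difference lay in tumour 4 (-0.89 ± 0.59, adjusted p = 0.652, limma).

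The other named lower genes had no role in a fixed list. Necab3, an EF-hand calcium-binding protein gene, stood at 7.53, 7.57, 5.94 and 8.55 CPM in detected cells and 26.9, 19.5, 19.7 and 24.6 CPM in undetected cells, classes that did not overlap. Its mean over detected cells was under the minimum of 10 CPM, so it entered the test through its level in undetected cells, which among the 64 genes held only for Necab3 and, the other way, Prkcq. It differed by -0.90 ± 0.14 (adjusted p = 0.0147, or 0.0162 with a minimum of 1 CPM, limma) and by -1.36 (adjusted p = 0.0472) with cells thinned and matched, where it was the 1 lower gene of 12 that passed. Thrsp, a gene linked to lipid synthesis, differed by -1.14 ± 0.22. It stood at 37.65, 1.375, 1.696 and 0 CPM in detected and 73.35, 9.01, 9.529 and 37.8 CPM in undetected cells. Its mean over detected cells, 10.18 CPM, thus came mostly from tumour 1. Whrn, Maged2 and the less characterised 0610031J06Rik and A330076H08Rik differed by -0.65 ± 0.14, -0.58 ± 0.11, -0.69 ± 0.14 and -0.52 ± 0.09.

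No SHH pathway gene passed the test. Of 13 tested, 1 had an unadjusted p under 0.05, and the median was 0.05. Gli1, a transcription factor and direct target of the pathway, stood at 47.9, 79.8, 78.9 and 54.1 CPM in detected cells and 47.6, 65.5, 79.0 and 38.1 CPM in undetected cells (0.17 ± 0.11, adjusted p = 0.622, limma). Mycn, a proto-oncogene that SHH induces in these progenitors, differed by 0.15 ± 0.07 (adjusted p = 0.468, limma). Of 16 tested granule progenitor factors 0 passed and 4 had an unadjusted p under 0.05. Sox4 came nearest, at 243.7, 165.4, 202.6 and 222.2 CPM against 219.9, 119.7, 152.5 and 106.8 CPM (0.49 ± 0.11, adjusted p = 0.0563, limma). Among 20 tested neuronal maturation genes not used by the rule 0 passed (3 at an unadjusted p under 0.05), and the median was 0.01.

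**Figure D5:**
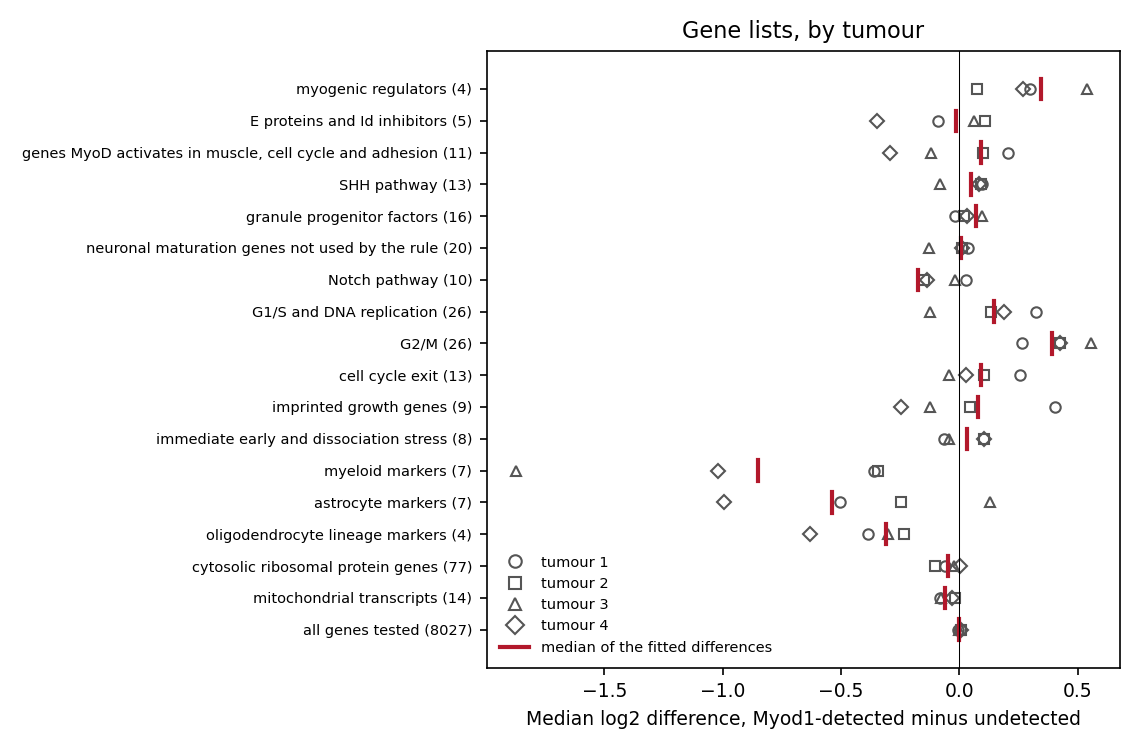
Median log2 difference (x axis) of the tested genes of each list (y axis, number tested in brackets): open symbols are the medians within tumours 1 to 4 and red bars are the medians of the fitted differences. The G2/M list is positive in each tumour, the myeloid list is negative in each tumour and spreads widely, and all genes together sit at 0.

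Several imprinted growth genes, among them H19, Cdkn1c and Igf2, had their highest levels in tumour 1. H19, a non-coding RNA of muscle and embryonic tissue, stood at 119.1, 2.06, 0 and 0 CPM in detected cells and 37.3, 1.27, 1.73 and 2.23 CPM in undetected cells. Cdkn1c, the gene of the inhibitor p57, stood at 287.5, 34.0, 31.4 and 14.2 CPM against 90.1, 34.4, 22.6 and 20.4 CPM. Their differences in tumour 1 were 1.45 and 1.57, in the tumour that also held muscle cells and Myog. Igf2 stood at 189.0, 83.6, 41.5 and 54.1 CPM in detected and 145.3, 54.7, 34.8 and 45.5 CPM in undetected cells. It was higher in the detected class in 4 of 4 tumours, by 0.33 ± 0.10 (adjusted p = 0.211, limma). Of 9 tested genes in the list 0 passed (2 at an unadjusted p under 0.05). Of 8 tested immediate early and dissociation stress genes 0 passed, also without adjustment of p. Of 77 cytosolic ribosomal protein genes 1 passed, Rps23 at -0.14 ± 0.03 (adjusted p = 0.0406, limma), with a median of -0.05, and of 14 mitochondrial transcripts 0 passed (5 at an unadjusted p under 0.05).

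Differences were read separately for cells with 1 Myod1 UMI and with 2 or more, in tumours 1 to 3, which had at least 10 cells of each kind and whose values are given below. Both sets were compared with the same undetected cells, so the 2 readings are not independent. With 1 UMI 4 genes passed, 3 higher and 1 lower, over 4 tumours (limma, 582 at an unadjusted p under 0.05), and with 2 or more 189 passed over tumours 1 to 3; that difference was not tested. Cdk1 differed by 0.23 in cells with 1 UMI and by 0.74 in cells with 2 or more, Top2a by 0.34 and 0.70, and Hmgb2 by 0.34 and 0.66. Prkcq differed by 0.33 and 1.12, Cdca5 by 0.06 and 0.80, and Cdh15 by 0.36 and 0.74. Lower genes had values of -0.67 and -0.92 for Dll3, -0.66 and -1.08 for Necab3, and -0.53 and -0.90 for Olig1. Tacc3 at 0.46 and 0.49 and Maged2 at -0.54 and -0.39 differed little between the readings or in the other order.

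Myod1 lies at chromosome 7, 46376474 to 46379092 (GRCm38.p6). Of 23 protein-coding genes within 500 kb, 6 were listed in every tumour and abundant enough to test, and 0 passed. Kcnc1, a potassium channel gene, differed by 0.32 ± 0.14 (adjusted p = 0.423, limma). Ldha, the gene of lactate dehydrogenase A, was lower in 4 of 4 tumours, by -0.26 ± 0.06, at an adjusted p of 0.0522 (limma).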

How the data were processed

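Values deposited by the authors were on a log2 scale, the form log2(UMIs / size factor + 1) being read from the numbers; the submitters' processing notes name Cell Ranger, Seurat and the build mm10, without versions. Every deposited value came out as a whole UMI count within 0.01. Counts were summed per tumour and class, scaled to CPM and tested with limma 3.58.1 (R 4.3.3, trend, robust, tumour as a block, two-sided, Benjamini-Hochberg) on log2(CPM + 10). All 4 files shared 13149 genes. The 8027 of them with a mean of at least 10 CPM were tested, leaving out Myod1 and the 13 rule genes. Cells were matched over 10 depth strata. Because the unit was log2, no count model was used. The members and lists were chosen with earlier results of these data known. Genes named were the 12 largest differences in each direction that passed and shared their sign in every tumour (1 of the lower genes is not reported here), members of the lists and neighbours of Myod1; others are named as chosen after their values were seen. On simulated profiles of 8004 genes, 52.0% of changes of 0.5 and 95.0% of changes of 1 (log2) were recovered, and 4.55% of calls were false. The changed genes came from above a higher minimum level than the test used. Their change was the same in every simulated tumour and the added spread was fixed, so these shares are not the power of the real comparison. Symbols were matched to RefSeq (GRCm38.p6; 226 of 238 found). How multi-mapping reads were counted is not stated, so genes with near-identical copies (Hmgb1, Hmgb2, Hmgn2, H2afz, Stmn1, Tuba1b, Tubb5, Ptma, Rps23) are uncertain. Both classes came from the same 4 tumours, which pairs them.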

Additional observations from a re-analysis of the deposited data

Results flagged for a closer look

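In 6 genes, 1 tumour stood apart from the other 3 in the difference between Myod1-detected and undetected cells, by a gap above Dixon's 95% critical value for 4 values. This was checked for 98 quantities, and chance alone gives about 1 in 20. Thrsp differed by -2.26 in tumour 4, with a gap of 0.956 of the range. S100b differed by -1.53 in tumour 4, with a gap of 0.850. Nusap1, a spindle gene, differed by 0.84 in tumour 3, with a gap of 0.853. Hes5 differed by -3.00 in tumour 4, with a gap of 0.870, and Bub1, a gene of the spindle checkpoint, by -0.65 in tumour 4, with a gap of 0.889. Pax6 differed by 0.52 in tumour 1, with a gap of 0.935. Hes5, Bub1 and Pax6 had not passed the test. Tumour 4 had 26 detected cells.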

How the results depend on the processing

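The count of 64 genes fell to 12 when cells were thinned and matched, 38 with a pseudocount of 1, 2 when only a Myod1 UMI kept after thinning counted as detection, and 0 with no replicate block (limma, 132 genes at an unadjusted p under 0.05). It rose to 315 without depth matching, 116 with 5 depth strata, 189 for at least 2 Myod1 UMIs against 0 (tumours 1 to 3) and 339 with profiles weighted by cells. Of settings added after seeing the data, at most 1 neuronal and 0 muscle genes gave 9, at most 1 glial marker 4, at most 3 glial markers 2, at most 1 myeloid marker 0 (limma, 236 genes at an unadjusted p under 0.05; 3 tumours) and matching on depth and phase, without cells under 5700 UMIs and with 5 strata, 8. Leaving out 1 tumour gave 21 (without tumour 2) to 123 genes (without tumour 4). The share of higher genes among those passing was 75.0% in the main comparison and 93.4% with the mean of the deposited log2 values (71 higher, 5 lower); it was 33.3% under at most 1 neuronal and 0 muscle genes. Of the 23 genes named by the rule, 1 reversed in 1 setting: Olig1, at 0.0402 with at most 3 glial markers. Many more kept their sign but no longer passed. This held for 129 of 297 values of the 12 higher and 136 of 268 of the 11 lower genes over all settings. Other genes, none of which had passed, reversed: Gli1 to -0.00614 under at most 1 neuronal and 0 muscle genes and -0.0733 under at most 1 glial marker, Igf2 to -0.0450 and Cdkn1c to -0.33 under at most 1 myeloid marker, C1qb to 0.0154 with mean deposited log2 values and 0.10 without the cells richest in myeloid and glial transcripts, H19 to -0.27 with a pseudocount of 1 and, under at most 1 glial marker, H19 to -0.10, Mef2c to -0.24, Meis1 to -0.0539, Ldha to 0.25, Gfap to 0.42, Tcf3 to -0.0750, Cdkn1a to 0.58, Bub1 to -0.13 and Kcnc1 to -0.0436. Cdkn1a was also above 0 when thinned without strata (0.0646), with at least 2 Myod1 UMIs (0.18), with Myod1 kept after thinning (0.16), weighted by cells (0.0574), under at most 1 neuronal and 0 muscle genes (0.61), under at most 1 myeloid marker (0.28) and without tumour 4 (0.0369). Barhl1 reversed to 0.0571 without tumour 1, Pcna to -0.0162 and -0.00353 and Bub1 to -0.00177 and -0.0179 without tumours 1 and 2, and Tcf3 to -0.0349 without tumour 4; over left-out tumours Pcna reached 0.14, Bub1 0.33 and Tcf3 0.0783 at most and Cdkn1a -0.58 at least. Matching on depth and phase gave 0.0401 for Barhl1, -0.0156 for Pcna and -0.00537 for Ccnb2; Zic1 was -0.0513 under at most 3 glial markers, Tcf3 -0.00333 with mean deposited log2 values, Pcna -0.0208 without the cells richest in myeloid and glial transcripts and Kcnc1 -0.0477 under at most 1 neuronal and 0 muscle genes. The cause was not tested. Thinned Myod1 shares moved to 27.5% (tumour 1) and 24.7% (tumour 2). With 0 neuronal and 0 muscle genes the share was 28.4% in tumour 2 and 3.70% in tumour 4, and with at most 1 and 0 it was 25.8, 22.3 and 7.14% in tumours 2, 3 and 4. The G2/M share difference ran from 9.17 to 13.2 points and that of S from 4.06 to 7.89 over left-out tumours. The gene comparison with 0 neuronal and 0 muscle genes was not run, since only tumour 2 had at least 10 cells in each class.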

Other observations

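Some genes passed that belong to no list and not to the largest differences, and were chosen here after their values were seen. Phgdh and Shmt2 encode enzymes of serine synthesis and of the mitochondrial step from serine to glycine. Phgdh stood at 307.4, 523.3, 321.3 and 259.2 CPM in Myod1-detected cells of tumours 1 to 4 and 226.8, 408.7, 283.3 and 200.6 CPM in undetected cells, a difference of 0.33 ± 0.06 (adjusted p = 0.0309, limma). Shmt2 stood at 143.8, 263.4, 182.3 and 91.2 CPM against 89.3, 202.7, 157.7 and 54.6 CPM, a difference of 0.46 ± 0.09 (adjusted p = 0.0356, limma). Both were higher in 4 of 4 tumours. Other passing genes were Celf2, an RNA-binding protein gene (0.39 ± 0.07), Dpysl4, of the collapsin response family (0.50 ± 0.11), Kpna2, a nuclear import receptor gene (0.52 ± 0.10), and Tpm4, a tropomyosin gene of non-muscle cells (0.32 ± 0.07). Among lower genes, Psap and Itm2b, both widely expressed in glia and neurons, differed by -0.41 ± 0.08 and -0.29 ± 0.06, and Tst, a mitochondrial sulfurtransferase gene, by -0.43 ± 0.09.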
